A study of Apis mellifera carnica with 38 samples.

Results

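The sex peptide receptor and the Mth2-like receptor of the honey bee were followed through every library of the series. The sex peptide receptor (SPR) is GeneID 724225, and the G-protein coupled receptor Mth2-like is GeneID 113219298. They are 2 of the 12332 genes in the deposited counts. SPR was taken by its annotation as the bee counterpart of the Drosophila receptor. The Mth2-like gene was taken because the study had named it among the brain genes that were higher in SE and SF than in HS queens. Its brain differences from HS and V queens are therefore given as a description, without a test.

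Queens of Apis mellifera carnica were reared as close relatives from a colony whose queen had been inseminated by a single drone, and none had mated. SE queens were injected with semen, SF queens with seminal fluid from which the sperm had been pelleted, and HS queens with Hayes solution, the diluent of semen, while V queens received no injection. The injections went through the abdominal wall into the hemocoel and not into the reproductive tract, and no anaesthetic was given, so injected queens share a wound that V queens lack. Single queens were sequenced: brains of 5 SE, 3 SF, 5 HS and 5 V queens, and fat bodies of 5 queens of each group, the fat body being the lining of the emptied abdominal cuticle.

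In Drosophila, males transfer sex peptide in the seminal fluid, and its binding to SPR on neurons of the female reproductive tract lowers receptivity and raises egg laying. SPR passes its signal through inhibitory G proteins, which lower cyclic AMP. Methuselah receptors form another family of G-protein coupled receptors, known in Drosophila for effects on lifespan and resistance to stress. The comparison of SE and SF with HS queens asked what semen and seminal fluid change beyond the injection of diluent, and V queens gave the level without injection.

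SPR (LOC724225) lies on chromosome 8 of the Amel_HAv3.1 genome from 12243859 to 12248389, with 4 annotated transcripts. The Mth2-like gene (LOC113219298) lies on chromosome 16 from 719511 to 721073, with 1 transcript. Neither span overlaps another gene of the reference table. The gene nearest to SPR, LOC411290, ends 585 bases before it, and the gene nearest to the Mth2-like gene, CPR5, begins 5089 bases after it.

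Between 22535778 and 47369758 reads were recorded per library. Reads counted on genes numbered 8699477 to 25753740 in brains and 4832119 to 29963718 in fat bodies. The share of reads that did not align to the bee genome was 49.3 to 71.6% in the fat bodies of injected queens and 3.64 to 5.13% in those of V queens. Summed levels of the neuron markers Syt1 and brp were 315 to 429 CPM in brains and 8.05 to 22.8 CPM in fat bodies. The 5 fat body markers (Vg and the hexamerins) summed to 12400 to 99700 CPM in fat bodies and to 379 to 12700 CPM in brains, and no brain library lacked them. CPM, the reads of a gene relative to the size of its library, are normalized by TMM throughout, which scales each library to a common reference.

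Of the 18 brain libraries, 4 stood apart from their groups, and the brain levels of the Mth2-like gene depend on them. In the brain libraries labelled S83 (SE) and SP16 (SF), 4.05 and 6.08% of the reads were not aligned, against 28.2 to 39.7% in the other SE and SF brains. In those labelled C20 and C49 (V), the shares were 34.3 and 25.1%, against 4.24 to 5.37% in the other V brains. The fat body libraries with the same 4 queen labels had the shares of their own groups. The study left S83 and SP16 out of its brain comparisons. The paper excluded libraries with few reads aligned to the genome of Deformed Wing Virus, which it reports as the most abundant virus. It also reports that most V queens had few or no such reads. Viral reads were not analysed here. Here all brain libraries were kept, and values are also given without these 4, a set chosen after its values were seen and in part for its levels of the Mth2-like gene.

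Reads on LOC412162 (chromosome 7, from 3807388 to 3813373) and on LOC100577767 were compared between both libraries of a queen. These genes were picked after their values were seen. They were the 2 that were either counted or nearly silent in both tissues of the 14 other queens with both tissues sequenced. Their state was the same in both tissues of all 14. LOC100577767 had at least 14 reads in the brains of these queens where it was counted, and at most 5 in the others. It was counted in every HS queen and nearly silent in the V queens C64, C68 and C77, so its state went with treatment in these queens. The fat body labelled C49, also V, had 92 reads on it, and the SE and SF groups held both states. LOC412162 had 1602 reads in the brain labelled C20 and 20 in the fat body labelled C20. It had 8 reads in the brain labelled S83 and 783 in the fat body labelled S83. LOC100577767 split the same way, with 47 reads in brain and 8 in fat body for C20, and 2 in brain and 71 in fat body for S83. C49 and SP16 had the same states as each other in both tissues, so these genes could not tell the C49 and SP16 brains apart and say nothing of their labels. The labels of these brain libraries may be wrong, which was not settled here, and every SE, SF and V brain value of the Mth2-like gene is given by the label.

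**Figure D1:**
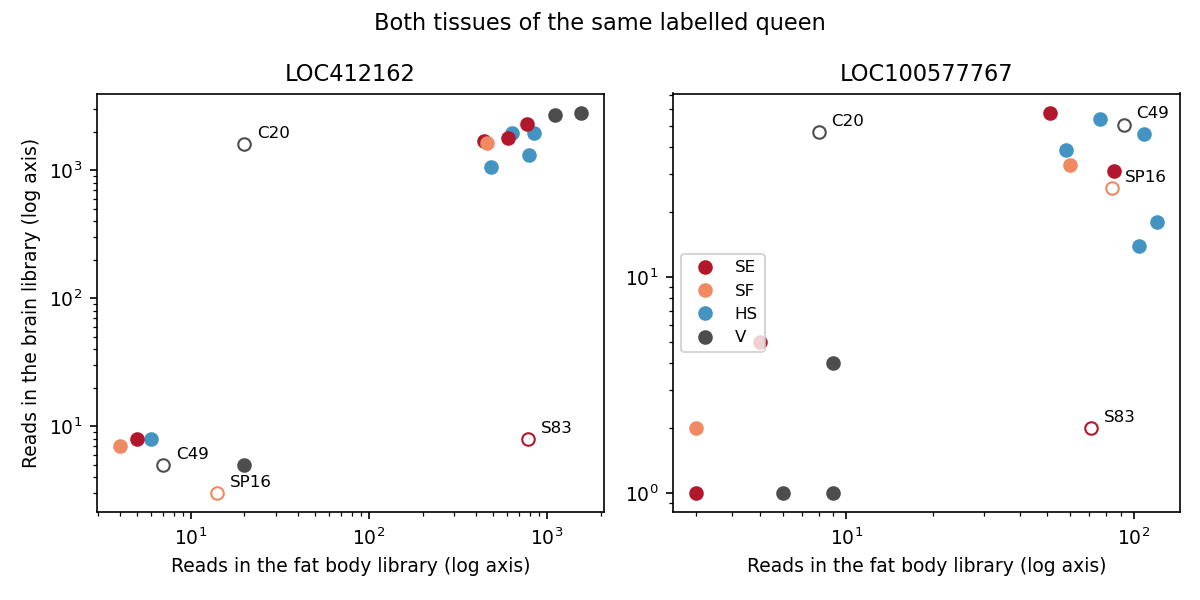
Reads on LOC412162 (left) and LOC100577767 (right) in the brain library (vertical, log axis) and fat body library (horizontal, log axis) of each of the 18 queens with both tissues, coloured by labelled treatment. Open points are the queens labelled C20, C49, S83 and SP16, and C20 and S83 lie away from the 2 clusters in both panels.

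The Mth2-like gene had either at least 105 reads or at most 11 reads in each brain library. In SE brains it had 8.45 CPM in S24, 11.2 in S27, 13.9 in S29, 7.17 in S38 and 0.116 in S83, the last from 3 reads (exact Poisson 95% interval 0.619 to 8.77 reads, counting error only). In SF brains it had 8.99 CPM in SP1, 9.55 in SP76 and 0.328 in SP16. In 6 of these 8 libraries the gene was at 7.17 CPM or more, and S83 and SP16 were the exceptions.

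In HS brains the Mth2-like gene had 1.15 CPM in H51, 0.0597 in H53, 0.174 in H73, 0.122 in H74 and 0.708 in H75, from 1 to 11 reads. In V brains it had 17.8 CPM in C20, 14 in C49, 0.101 in C64, 0.226 in C68 and 0.174 in C77. The highest 2 levels of all 18 brains were thus in libraries labelled V, and the SE, SF and V groups each held both high and low libraries. Only the HS group was low throughout, so SE and SF each overlapped HS through 1 library.

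**Figure D2:**
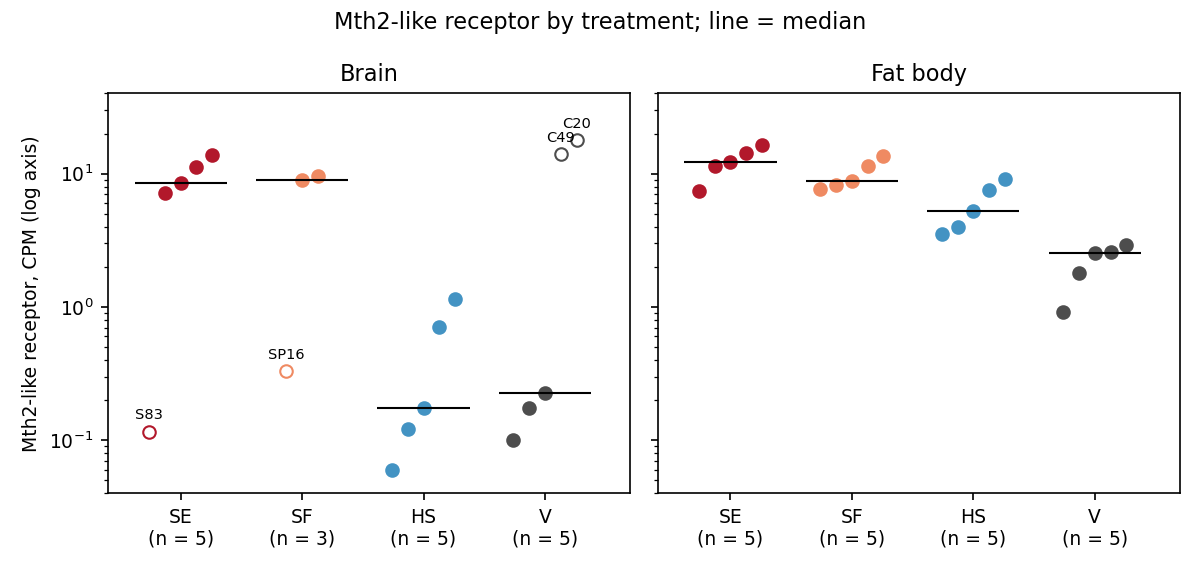
Mth2-like receptor in TMM-normalized CPM (vertical, log axis) in brain (left) and fat body (right) libraries of SE, SF, HS and V queens, with a line at each group's median. Open points are the brain libraries labelled S83, SP16, C20 and C49, and in fat bodies every injected queen lies above every V queen, 3.54 CPM or more against at most 2.9 CPM.

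With all libraries, the Mth2-like gene averaged 8.17 ± 5.2 CPM in SE brains (SD, n = 5), 6.29 ± 5.17 in SF brains (SD, n = 3), 0.443 ± 0.472 in HS brains (SD, n = 5) and 6.46 ± 8.72 in V brains (SD, n = 5). The fitted log2 fold change was 4.34 (standard error 1.5) for SE against HS and 3.96 (standard error 1.62) for SF against HS. Against V queens it was 0.35 (standard error 1.11) for SE, -0.03 (standard error 1.3) for SF and -3.99 (standard error 1.51) for HS. The gene passed the filter on low counts through the 8 brains where it was high. Without the 4 libraries, the means were 10.2 ± 3 CPM in SE (SD, n = 4), 9.27 ± 0.401 in SF (SD, n = 2), 0.443 in HS and 0.167 ± 0.0626 in V (SD, n = 3), and the log2 fold changes were 4.68 for SE and 4.55 for SF against HS. Of these means the V mean moved most, since the V libraries kept held 11 of the 541 V reads on the gene.

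The choice of the gene called for a high level in both SE and SF brains, so the contrast between these groups is a description too. The log2 fold change of SE against SF was 0.38 with a 95% interval from -2.38 to 3.15. In this contrast 0% of the 9057 genes were called by edgeR and by limma-voom, 9 were called by DESeq2, and 662 had an unadjusted p under 0.05. It was 0.13 without the 4 libraries, 2.19 with the sequencing lane as a term and 1.23 with the share of reads not aligned as a term. The interval with all libraries spans folds from 0.192 to 8.85, so any fold inside that range remains possible on these values.

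In fat bodies the Mth2-like gene was counted in every library and was higher in all 3 injected groups than in V queens. Its level was 11.4 CPM in S24, 14.2 in S27, 16.4 in S29, 7.46 in S38 and 12.3 in S83 among SE queens. Among SF queens it was 7.64 CPM in SP1, 13.5 in SP16, 8.23 in SP35, 8.8 in SP76 and 11.5 in SP79. These groups overlapped over most of their range.

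Among HS fat bodies it was 3.97 CPM in H51, 5.26 in H53, 3.54 in H73, 9.15 in H74 and 7.5 in H75. Among V fat bodies it was 0.91 CPM in C20, 1.81 in C49, 2.56 in C64, 2.9 in C68 and 2.57 in C77. The HS library H74 lay in the ranges of both SE and SF queens, and H75 in that of SE queens only, while no V library reached the range of any injected group. The fat bodies of queens C20, C49, S83 and SP16 lay with their own groups.

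The mean level was 12.4 ± 3.35 CPM in SE, 9.94 ± 2.49 in SF, 5.88 ± 2.39 in HS and 2.15 ± 0.799 in V fat bodies (SD, n = 5 each). Against V queens the Mth2-like gene rose in SE (log2 fold change 2.51, standard error 0.3, adjusted p = 6.67e-06), in SF (2.20, standard error 0.3, adjusted p = 2.58e-05) and in HS queens (1.44, standard error 0.3, adjusted p = 0.00664), by edgeR's quasi-likelihood test. In these contrasts 33.4%, 28.1% and 7.63% of the 8403 genes tested were called. The 3 comparisons share the V libraries, and the share of reads not aligned separates V from the injected queens as the injection does. With that share as a term the log2 fold changes were 2.21, 1.93 and 1.15 and none passed (adjusted p 0.809, 0.711 and 0.973), so injection and this share cannot be told apart here.

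Against HS queens the Mth2-like gene rose in SE fat bodies by a log2 fold change of 1.07 (standard error 0.29, 2.1-fold, adjusted p = 0.0375), a contrast in which 5.14% of genes were called. In SF fat bodies the log2 fold change from HS was 0.77 (95% interval 0.17 to 1.37), which did not pass (adjusted p = 0.165), where 2.65% of genes were called. The study chose the gene on brains of queens that also gave SE, SF and HS fat bodies here. Its direction in these contrasts is therefore not independent evidence. SE against SF gave 0.30 (95% interval -0.29 to 0.89, adjusted p = 0.878). In that contrast 0% of genes were called by edgeR, DESeq2 and limma-voom, with 487 at an unadjusted p under 0.05 by edgeR. In the order SE, SF, HS and V, the neighbours SE and SF, and SF and HS, did not differ beyond the threshold, and HS and V did.

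The call of SE against HS lay near the threshold. It was lost when any of the HS libraries H51, H53 and H73 or the SE libraries S24, S27, S29 and S83 was left out (adjusted p 0.0556 to 0.108), with log2 fold changes between 0.93 and 1.08. In bulk tissue, more cells that express a gene and more RNA per cell cannot be told apart.

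**Figure D3:**
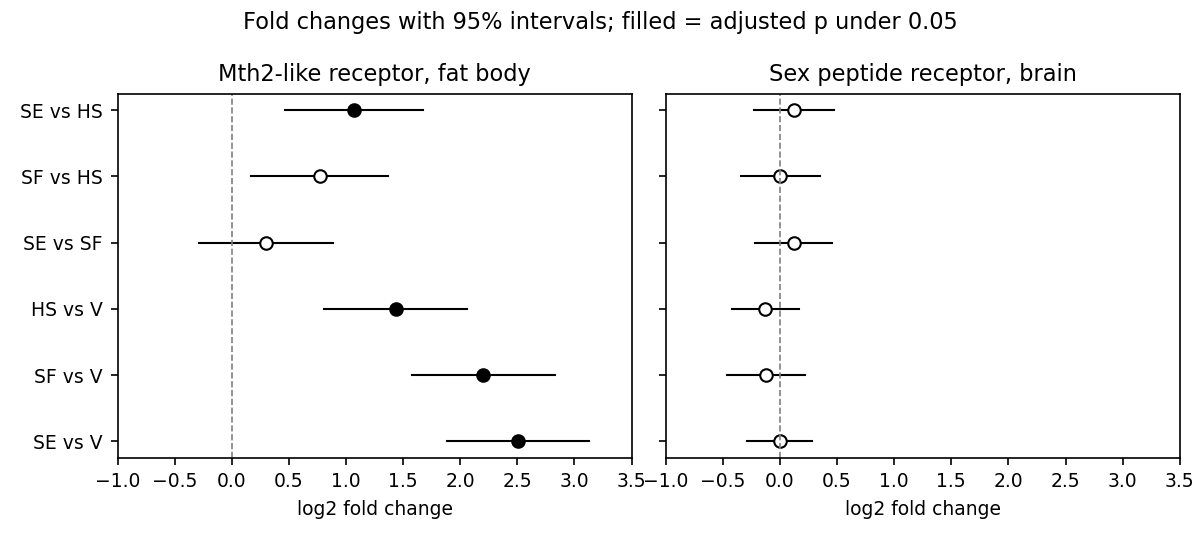
Fitted log2 fold changes (horizontal) with 95% intervals for the 6 comparisons of treatments, for the Mth2-like receptor in fat bodies (left) and SPR in brains (right), filled where the adjusted p was under 0.05. The Mth2-like gene has 4 filled points, from 1.07 for SE against HS to 2.51 for SE against V, and SPR has none.

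Marker levels were read in the same fat bodies. The summed fat body markers were at 16000 to 35000 CPM in SE, 14600 to 51200 CPM in SF, 12400 to 37000 CPM in HS and 42400 to 99700 CPM in V queens, with all 5 genes detected in each group. The muscle genes, 5 of 7 detected, summed to 1890 to 3250 CPM in SE, 2120 to 2660 CPM in SF, 1830 to 2530 CPM in HS and 2480 to 3120 CPM in V queens. PPO, the prophenoloxidase of haemocytes, was at 25.1 to 113 CPM in SE, 30.2 to 514 CPM in SF, 28.3 to 105 CPM in HS and 23.3 to 77.4 CPM in V queens. The part of these cell types in the level of the Mth2-like gene was not tested.

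In brains the fat body markers overlapped between all groups, with 379 to 11900 CPM in SE, 4300 to 10500 CPM in SF, 1160 to 8940 CPM in HS and 2110 to 12700 CPM in V queens. Their part in the brain levels was not tested.

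Within HS brains the share of reads not aligned was 22.1 to 53.6%, a range that holds all SE and SF brains other than S83 and SP16. HS brains had at most 1.15 CPM of the Mth2-like gene at those shares, against at least 7.17 CPM in the 6 SE and SF brains. At the lowest shares, 4.05 to 6.08%, all 5 brains were at 0.328 CPM or less, whichever group they were labelled with. With this share as a term the log2 fold change was 5.58 for SE and 4.36 for SF against HS. The study chose the gene for its difference between these same SE, SF and HS brains. These values are therefore a description, and the part of this share in the difference was not tested.

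**Figure D4:**
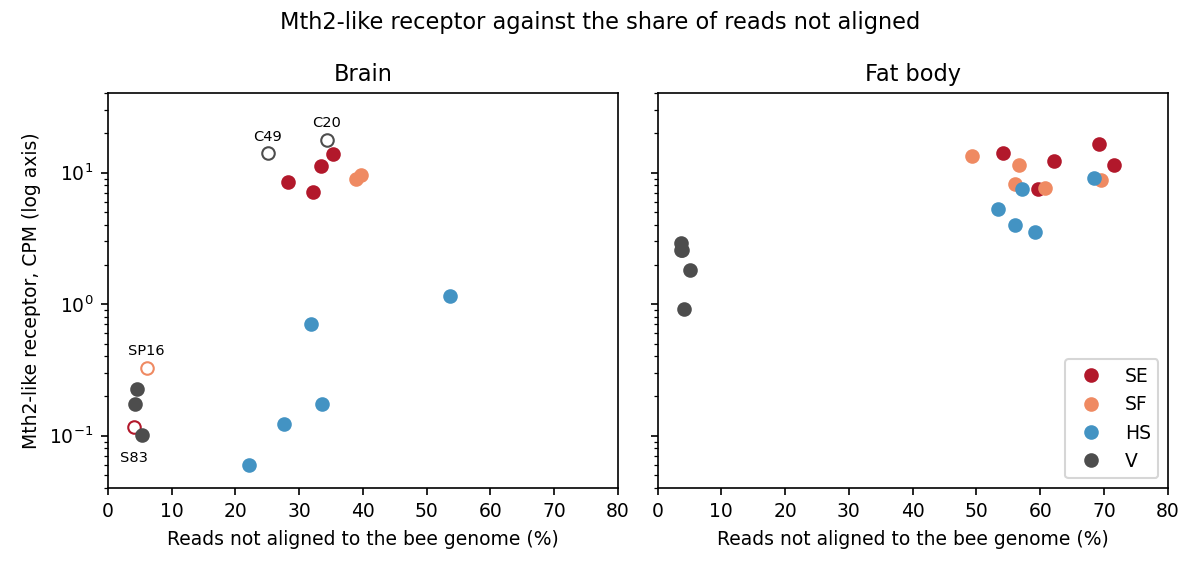
Mth2-like receptor in TMM-normalized CPM (vertical, log axis) against the percent of reads without an alignment to the genome (horizontal) in brain (left) and fat body (right) libraries, coloured by labelled treatment, with open points for the brains labelled S83, SP16, C20 and C49. HS brains lie at or under 1.15 CPM at shares of 22.1 to 53.6%, while the brains labelled C20 and C49 lie with SE and SF brains.

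Between tissues, the Mth2-like gene gave no stable order in V queens. The brain minus fat body log2 difference was 1.11 (95% interval -0.59 to 2.81, adjusted p = 0.22), in a contrast where 81.1% of the 9232 genes were called. It was -0.52 with the queen as a block (adjusted p = 0.71), -1.59 with limma-voom and -4.02 without the 4 libraries. The 3 V brains other than C20 and C49 had 0.101 to 0.226 CPM, against 2.56 to 2.9 CPM in the fat bodies of the same queens. The brains labelled C20 and C49 had 17.8 and 14 CPM, against 0.91 and 1.81 CPM in the fat bodies so labelled.

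SPR was at a low and even level in all brains. It had 3.87 CPM in S24, 3.75 in S27, 3.79 in S29, 3 in S38 and 2.81 in S83 among SE brains, and 3.59 in SP1, 2.79 in SP16 and 3.14 in SP76 among SF brains. Among HS brains it had 2.99 CPM in H51, 3.41 in H53, 2.97 in H73, 3.4 in H74 and 2.96 in H75. Among V brains it had 2.65 CPM in C20, 3.08 in C49, 3.54 in C64, 3.79 in C68 and 4.12 in C77. All groups overlapped, and the highest brain was 1.56-fold above the lowest.

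These levels rested on 26 to 95 reads per brain library. The coefficient of variation over the 18 brains was 13.2%, where counting error alone would give 13.7%. The means were 3.45 ± 0.499 CPM in SE (SD, n = 5), 3.18 ± 0.403 in SF (SD, n = 3), 3.15 ± 0.237 in HS (SD, n = 5) and 3.43 ± 0.582 in V brains (SD, n = 5).

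No comparison of treatments passed for SPR in brains. SE against HS gave a fold of 1.09 with a 95% interval from 0.854 to 1.39 (adjusted p = 0.812), SF against HS a fold of 1 (0.788 to 1.28, adjusted p = 0.996) and SE against SF a fold of 1.09 (0.857 to 1.38, adjusted p = 0.907). Against V queens the folds were 0.997 (0.817 to 1.22) in SE, 0.918 (0.725 to 1.16) in SF and 0.915 (0.746 to 1.12) in HS queens, with adjusted p of 0.999, 0.933 and 0.866. By edgeR, 0.0221% of genes were called for SE against HS and 0% in each other brain contrast, where 364 to 822 genes had an unadjusted p under 0.05. In those contrasts DESeq2 called 0 to 9 genes and limma-voom 0, and for SE against HS they called 36 and 2. Without the brain labelled SP16, edgeR called 365 genes for SF against HS, 178 for SE against SF and 132 for SF against V.

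Without the 4 libraries, SPR averaged 3.6 ± 0.406 CPM in SE (SD, n = 4), 3.37 ± 0.323 in SF (SD, n = 2), 3.15 ± 0.237 in HS (SD, n = 5) and 3.82 ± 0.295 in V brains (SD, n = 3). The log2 fold changes were then 0.19 for SE against HS (adjusted p = 0.462), 0.09 for SF against HS (adjusted p = 0.831) and -0.27 for HS against V (adjusted p = 0.505). The comparisons as a whole called more genes without these libraries, 206 of 9062 for SE against HS and 905 for SF against HS, and SPR was not among the genes called.

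**Figure D5:**
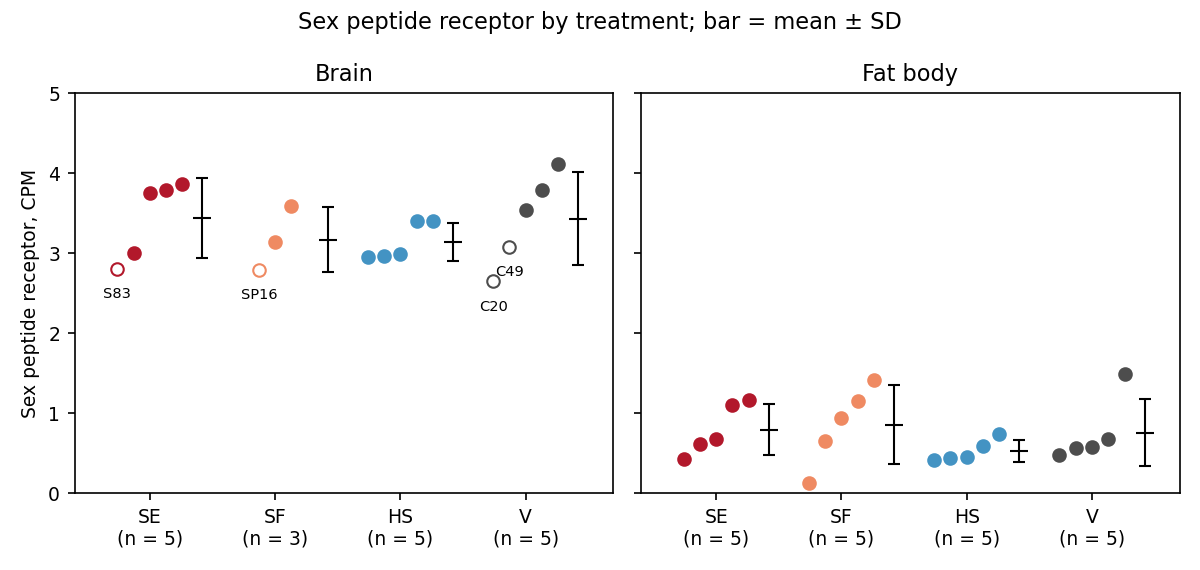
SPR in TMM-normalized CPM (vertical) in brain (left) and fat body (right) libraries of SE, SF, HS and V queens, with bars for the mean and SD of each group and open points for the brains labelled S83, SP16, C20 and C49. Brains lie between 2.65 and 4.12 CPM in all groups and fat bodies between 0.125 and 1.49 CPM.

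In fat bodies SPR was scarce, with 1 to 36 reads per library. It had 0.672 CPM in S24, 0.423 in S27, 1.16 in S29, 1.1 in S38 and 0.616 in S83 among SE queens, and 0.648 in SP1, 0.946 in SP16, 0.125 in SP35, 1.15 in SP76 and 1.42 in SP79 among SF queens. It had 0.441 CPM in H51, 0.451 in H53, 0.737 in H73, 0.42 in H74 and 0.586 in H75 among HS queens, and 0.575 in C20, 0.563 in C49, 0.674 in C64, 0.483 in C68 and 1.49 in C77 among V queens. All groups overlapped here too.

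SPR did not pass the filter on low counts in fat bodies, where the coefficient of variation was 49.2% against 36.1% from counting alone. The means were 0.793 ± 0.32 CPM in SE, 0.857 ± 0.497 in SF, 0.527 ± 0.134 in HS and 0.758 ± 0.417 in V fat bodies (SD, n = 5 each). With the minimum count lowered to 10, the log2 fold change from HS was 0.578 in SE (95% interval -0.382 to 1.54, adjusted p = 0.502) and 0.693 in SF fat bodies (-0.259 to 1.65, adjusted p = 0.473) by edgeR. Against V queens the values were 0.0538 in SE, 0.169 in SF and -0.524 in HS fat bodies (adjusted p 0.931, 0.795 and 0.493). Changes of this size were not detectable at this depth.

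SPR was higher in brains than in fat bodies. In V queens it had 3.43 ± 0.582 CPM in brains and 0.758 ± 0.417 CPM in fat bodies (SD, n = 5 each), a fitted log2 difference of 1.73 (95% interval 1.18 to 2.27). SPR entered this fit through the brains alone, where it is high, so the difference is a description with no test, in a contrast where 81.1% of genes were called. The lowest brain of the series, at 2.65 CPM, lay above the highest fat body, at 1.49 CPM. Under the same limit of the filter, the difference of SE from HS queens in brain minus that in fat body was -0.47 on the log2 scale (95% interval -1.38 to 0.44, adjusted p = 0.709), where 0.444% of genes were called. That of SF from HS queens was -0.70 (-1.66 to 0.26, adjusted p = 0.636), where 0.0758% were called.

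The inhibitory G protein subunit G(i) alpha (LOC411704, chromosome 1 from 14882852 to 14885879), through which SPR signals in Drosophila, ranked second of the 9057 brain genes in its likeness to the Mth2-like gene, with Pearson r = 0.966 over the 18 brains. It was also chosen by the study on these samples, so its direction is not independent evidence. It had 41.8 to 53.4 CPM in the SE brains other than S83 and 53.6 and 54.3 CPM in the SF brains other than SP16, against 25.2 CPM in each of S83 and SP16. HS brains had 26.1 to 33.8 CPM, and V brains had 25.1 to 27.9 CPM other than C20 and C49, which had 49.5 and 54 CPM. The 8 brains that were high for G(i) alpha were thus those that were high for the Mth2-like gene. For SPR the same measure gave r = 0.104.

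In fat bodies G(i) alpha averaged 54.1 ± 12.2 CPM in SE, 65.8 ± 8.46 in SF, 31.2 ± 10.5 in HS and 26.3 ± 3.27 in V queens (SD, n = 5 each). It rose against HS in SE (log2 fold change 0.79, adjusted p = 0.0158) and in SF queens (1.07, adjusted p = 0.00207) by edgeR. Its log2 fold change of HS against V was 0.25 (adjusted p = 0.425), where the Mth2-like gene rose. Whether the 2 genes differ in this was not tested.

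The other genes whose brain pattern was most like that of the Mth2-like gene were LOC412487 (r = 0.968), LOC408570 (0.96), LOC413167 (0.959) and LOC413844 (0.946), and the most opposite was LOC726126 (-0.947). In fat bodies they were LOC725269 (0.924), LOC100576592 (0.923), LOC552003 (0.923), LOC412546 (0.922) and LOC412487 (0.92), over 20 libraries and 8403 genes. LOC412487 was the gene on both lists. These values describe libraries that share treatment, depth and the share of reads not aligned. The study had also named LOC408570, LOC413844 and LOC726126 for SE and SF against HS on brains of this series. Their likeness or opposition to the Mth2-like gene is therefore not independent evidence.

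For SPR the closest brain genes were LOC552830 (r = 0.825), LOC412997 (0.817), LOC411481 (0.767), LOC725886 (0.765) and LOC411771 (0.76). LOC107965827 was the most opposite (-0.761). The spread of SPR itself over these brains was no larger than counting error.

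CPR5, beside the Mth2-like gene, had 2.83 to 5.06 CPM in brains, with log2 fold changes from -0.25 to 0.27 and no adjusted p under 0.724. In fat bodies it had 4 to 20 reads per library and failed the filter, so its treatments were not tested there. Its mean was 1.04 ± 0.425 CPM in SE, 1.02 ± 0.305 in SF, 0.545 ± 0.0953 in HS and 0.381 ± 0.117 in V fat bodies (SD, n = 5 each), the same order of groups as for the Mth2-like gene. Like SPR, CPR5 entered the fit of both tissues through the brains alone, so its differences between tissues rest on few fat body reads. Under this limit, the difference of SE from HS in brain minus that in fat body was -0.92 for CPR5 on the log2 scale (adjusted p = 0.205). That of SF from HS was -1.17 (adjusted p = 0.252). LOC107965672, on the other side, had 0 reads in all brains and at most 1 in fat bodies. LOC411290, beside SPR, had 29.7 to 65.7 CPM in brains and 19 to 68.2 CPM in fat bodies and passed in no comparison of treatments.

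A list of 14 genes of related signalling was followed with the receptors: the receptors for dopamine, serotonin, octopamine and tyramine, the adipokinetic hormone, corazonin and SIFamide receptors, G(i) alpha and the adenylate cyclase Ac3. In brains 0 of 14 passed by edgeR in any comparison of treatments, and 1 to 3 of them had an unadjusted p under 0.05 in each (lowest adjusted p 0.42). Of all 9057 genes, 977 had such an unadjusted p for SE against HS and 364 to 822 in the other brain comparisons. In fat bodies 11 of the 14 were tested. For SE against HS and for SF against HS, G(i) alpha was higher and Crzr, the corazonin receptor, was lower (log2 fold change -1.67, adjusted p = 0.000458, and -2.24, adjusted p = 3.81e-05), while 9 did not pass. The study had named both genes for these same contrasts on these fat bodies, so their calls are not independent evidence. Of all genes, 2.37% were called higher and 2.77% lower for SE against HS, and 1.45% higher and 1.20% lower for SF against HS.

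Against V queens, G(i) alpha was higher in SE (1.03, adjusted p = 0.000199) and in SF fat bodies (1.32, adjusted p = 1.98e-05), and Crzr was lower in SE (-2.03, adjusted p = 2.92e-06) and in SF fat bodies (-2.59, adjusted p = 4.65e-07). SIFR, the SIFamide receptor, was lower in SE (-0.74, adjusted p = 0.0129) and in HS fat bodies (-0.73, adjusted p = 0.0409), and Ac3 was lower in SE fat bodies (-0.49, adjusted p = 0.0106). Of all genes, 33.4% were called for SE, 28.1% for SF and 7.63% for HS against V, beside 4, 2 and 1 of these 11. With the share of reads not aligned as a term, 1, 3 and 0 of all genes were called in these contrasts. Injection and this share cannot be told apart here either. The SE and SF libraries are also those on which the study chose G(i) alpha and Crzr. The median over the 11 genes was -0.42 for SE against V, where the median of all genes was 0.03.

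In V queens 11 of the 14 were higher in brain than in fat body and 2 were lower, where 42.5% of all genes were called higher and 38.6% lower. Dop3, TyrR and 5-ht7, which failed the filter in fat bodies, entered this fit through the brains, so their higher brain levels are a description. The count of 11 and the median below include them. The lower genes were Akhr, the receptor that releases fat stores (-4.10), and Crzr (-2.83). The median log2 difference of the 14 was 3.06, against 0.05 over all 9232 genes.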

How the data were processed

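RNA from single brains (18 libraries) and fat bodies (20 libraries) was sequenced by the authors. Per the submitters' processing notes and the paper, reads were trimmed with cutadapt, aligned with HISAT2 to Amel_HAv3.1 and counted with HTSeq over whole gene spans, and the strand setting is not given in the sources used here. The authors deposited raw read counts for 12332 genes, without normalization. Rows that name no gene, 25 to 78.6% of the reads of a library, stayed out of library sizes and tests and gave the share not aligned.

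Libraries were grouped by the tissue, treatment and queen in their labels, which were kept although those of some brain libraries may be wrong. Tests were run on the counts with edgeR 4.0.16 (R 4.3.3): filterByExpr at a minimum count of 20, TMM, and the quasi-likelihood test with Benjamini-Hochberg adjustment over all genes of a fit, called under an adjusted p of 0.05. Each tissue had 1 fit over its 4 groups, and differences between tissues were fitted on all 38 libraries. Intervals are at 95%. The alternatives were DESeq2 1.42.0, limma-voom (limma 3.58.1), other scalings and filters, fewer groups, lane or share not aligned as a term, the queen as a block, the brains labelled S83 and SP16 left out, and each library left out. Leaving out C20, C49, S83 and SP16 together was added after the data were seen.

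Fat body and brain libraries share a queen label for 18 queens, so the pairing rests on the labels. For C20 and S83, brain and fat body differed in state at LOC412162 and LOC100577767, so their pairing is in doubt. The queen as a block rests on this pairing. Over the 18 queens the correlation of brain and fat body deviations from group means was -0.129 to 0.206, with 6 over 0.1. No library was a copy of another of its own tissue and treatment in 73 pairs (lowest chi-squared per degree of freedom 16.3). Pairs across groups were not compared. Each group holds separate queens. The steps were tested on simulated data.

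The named genes are the 2 receptors, their neighbours on the chromosome, the 5 genes most alike by Pearson r of log2 CPM (prior count 2), G(i) alpha and list members that passed. The receptors and the lists were chosen with earlier results of these data known. Lists were matched by symbol, since the reference table used here holds no descriptions. Sequences were not used here, and viral reads were not analysed here.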

Additional observations from a re-analysis of the deposited data

Results flagged for a closer look

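Over 28 groups of 5 libraries, 3 values stood apart from their own group, and chance would set about 1 in 20 groups apart in this way. SPR had 1.49 CPM in the fat body of the V queen C77, from 36 reads, against 0.483 to 0.674 CPM in the other V fat bodies. G(i) alpha had 49.8 CPM in the fat body of the HS queen H74, against 24.7 to 28.1 CPM in the other HS fat bodies, and that library also had the highest level of the Mth2-like gene among HS fat bodies, 9.15 CPM. The brain labelled S83 had 4.05% of its reads not aligned, against 28.2 to 35.3% in the other SE brains.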

How the results depend on the processing

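Both SPR contrasts that lay at 0.00 changed sign without passing. For SF against HS brains the log2 fold change was -0.01 with DESeq2, -0.02 with limma-voom, -0.03 with library size alone and 0 with lane or with the share not aligned as a term, and -0.09 to 0.09 with each library left out. For SE against V brains it was 0.03 with library size alone, 0 with no filter, 0.01 with the share not aligned and 0.06 without S83 and SP16, and -0.08 to 0.07 with each library left out. The Mth2-like contrast of SE with SF brains, 0.38 as reported, was 2.19 with lane and 1.23 with the share not aligned as a term, and -0.2 to 0.85 with each library left out. For the Mth2-like gene in fat bodies, SE against HS lost its call with library size alone (1.04, adjusted p = 0.0539), only the groups compared (1.07, 0.0506), lane (0.99, 0.0696) and the share not aligned (1.05, 0.0619), and lay between 0.93 and 1.29 with each library left out. With the share not aligned as a term, HS, SF and SE against V gave 1.15, 1.93 and 2.21 and did not pass. The cause was not tested, except that this term separates V from the injected fat bodies.

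The queen as a replicate block turned the brain minus fat body difference of the Mth2-like gene in V queens to -0.52 (adjusted p = 0.71), limma-voom to -1.59 and leaving out C20, C49, S83 and SP16 to -4.02. The block changed no other call, and for SPR it gave 1.81 in V queens and -0.48 and -0.80 for the differences between tissues. Of 634 alternative values, 598 were taken as the same, 14 no longer passed and 22 changed sign. For tested results, the same meant an equal direction and side of the threshold. The 598 include untested values of the Mth2-like gene in SE and in SF against HS brains, 11 settings and 18 left-out libraries for each. There the same meant an equal direction and a shift of less than the SD within groups. The 634 hold no value for SPR in fat bodies, which failed the filter, nor for the Mth2-like gene in SE or SF against HS brains alone, where it failed it too. Genes called moved from 2 to between 0 and 206 over the other settings for SE against HS brains, from 0 to at most 905 for SF against HS, 456 for SE against SF, 105 for HS against V, 877 for SF against V and 367 for SE against V brains. In fat bodies they were 147 to 783 (432) for SE and 69 to 428 (223) for SF against HS, and 1 to 3040 (2804) for SE against V, 3 to 2613 (2361) for SF against V and 0 to 954 (641) for HS against V, with the count as reported in parentheses. For the differences between tissues they were 22 to 142 (41) for SE and 3 to 72 (7) for SF against HS. With each library left out, the calls were 0 to 365 for SF against HS brains, 0 to 178 for SE against SF brains, 0 to 132 for SF against V brains and 1 to 6 for SE against HS brains. In fat bodies they were 136 (without S83) to 754 (without H74) for SE against HS, 83 to 491 for SF against HS and 344 to 967 for HS against V, and for the differences between tissues 14 to 126 for SE and 2 to 43 for SF against HS. Depth limits SPR in fat bodies, at 1 to 36 reads.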
